A study of Homo sapiens with 2 samples.

Results

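The proteasome genes of HL60 cells are described here, 48 of the 19817 protein-coding genes and of the 58302 genes of all kinds in the expression table. Members were the protein-coding rows whose symbol begins with PSM, followed by a letter from A to G and a number. They comprise 8 genes of the alpha ring, 7 of the constitutive beta ring, 4 immunoproteasome and thymoproteasome subunits, 6 ATPases and 11 non-ATPase subunits of the regulatory particle, 3 chaperones of that particle's assembly, 4 activators, 1 inhibitor and 4 core assembly chaperones. The study sequenced total RNA from HL60, an established acute myeloid leukemia line, made to overexpress EIF2S3, the gamma subunit of translation initiation factor eIF2, from a Retro-X Tet-Off Advanced system. Both libraries came from this stable HL60-EIF2S3 line: 1 from untreated cells (DOX(-)), in which the system's design has the transgene active, and 1 from cells treated with doxycycline (DOX(+)), in which it is meant to be suppressed. The sources used here do not give the dose, the duration, or whether the line was 1 clone or a pool. With 1 library per condition there is no replicate check and no test, so every value below compares these 2 libraries as labelled.

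The proteasome is the protease that degrades proteins tagged with ubiquitin. Its barrel-shaped core is built of stacked rings of alpha subunits, which gate the entrance, and beta subunits, some of which carry the catalytic sites. The regulatory particle caps the barrel, binds ubiquitin chains, and unfolds and threads the substrate with a ring of ATPases. In immune cells and under interferon, alternative catalytic subunits and the PSME1-PSME2 activator form the immunoproteasome, known for producing peptides for antigen presentation; blood-forming cells carry part of it without stimulation.

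The libraries held 16577645 fragments in DOX(-) and 18521279 in DOX(+), recovered from the deposited FPKM values. Among the markers of the labelled cell type, 5 of 6 promyelocyte genes reached 1 FPKM, with summed levels of 1348 FPKM in DOX(-) against 1075 in DOX(+). MPO did not, at 0.274 FPKM in DOX(-) and 0.469 in DOX(+). T cell and epithelial markers were all listed at 0 (0 of 3 each), and 1 of 3 monocyte markers and 1 of 3 B cell markers reached 1 FPKM. Mitochondrial genes took up 22.5% of the summed FPKM in DOX(-), against 27.7% in DOX(+). EIF2S3 itself was at 132.9 FPKM in DOX(-) against 126.2 in DOX(+), from 9448 and 10023 fragments, a ratio of 1.05 (95% counting interval 1.02 to 1.08). Scaled without mitochondrial genes, that ratio was 1.00 (0.975 to 1.03). Under that scaling the target gene did not separate the libraries as labelled, and fragments of the transgene and of the endogenous gene could not be told apart in this row.

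FPKM is meant to be per length, but the deposited values were not comparable between genes. They fitted whole fragments when each gene was divided by the summed length of all its distinct annotated exons, with overlapping exons of different transcripts counted repeatedly. Of genes with several annotated transcripts and up to 100 fragments, 91.6% came out whole to within 0.02 fragment in DOX(-) with that length, and 4.24% with the non-overlapping exon length. For 46 of the 48 proteasome genes the annotated sum gave whole fragments in both libraries (2 of these are at 0). For PSMB8 and PSMD11 the smallest length that did so was used, so their fragments are the fewest possible. The divisor exceeded the principal transcript (the isoform that the annotation marks as main) by a median of 2.83 times over the 48 genes, from 1 time in PSMB11 to 16.4 times in PSMG4, 14.6 times in PSME3 and 10.4 times in PSMA6. PSMA6 thus read as 12.6 FPKM in DOX(-) but as 131 when the same fragments were divided by the principal transcript. The ratio of the libraries within a gene does not depend on this length. Levels compared between genes below are the rebuilt ones, called rebuilt FPKM.

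**Figure D1:**
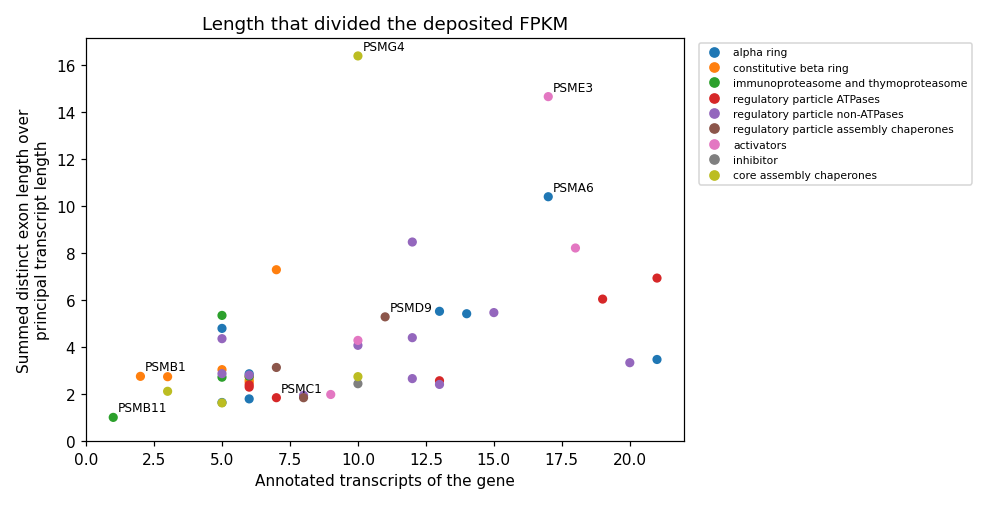
Summed length of the distinct exons over the length of the principal transcript (vertical axis), against the number of annotated transcripts (horizontal axis), 1 point per proteasome gene, coloured by role. PSMG4, PSME3 and PSMA6 stand highest, at 16.4, 14.6 and 10.4 times, and PSMB11, with 1 transcript, is at 1.

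Of the 48 genes, 46 reached 1 FPKM in at least 1 library, and PSMA8 and PSMB11 were listed at 0 in both. None of the 46 differed by 1.5-fold or more on log2(FPKM + 1), where 7.17% of all 11525 genes tested and 5.34% of the 9283 protein-coding genes did. This scale understates the difference of low genes: PSMB9 differed 1.54-fold in plain FPKM. The differences, DOX(-) minus DOX(+), ran from -0.34 in PSMC2 to 0.47 in PSMB9 on the log2 scale, with 22 above 0 and 24 below and a median of -0.01. The median over all genes tested was -0.02. The median absolute difference was 0.10 for the proteasome genes and 0.16 for 7053 protein-coding genes in the same fragment range (463 to 13609 over both libraries). Fragment numbers were not matched within that range. Exact counting intervals at 95% lay above an equal level for 14 genes, below it for 10 and included it for 22; among the 7053 genes 26.9% lay above and 36% below. These intervals reflect counting alone: the labels mention no molecular identifiers, so fragments need not be separate molecules, and the spread between cultures is unknown. Scaling to the total without mitochondrial genes moved the split to 16 above 0, with 10 intervals above and 20 below. It lowers the ratio of every gene by the same factor of 1.05, and the shares among the 7053 genes are not given under it. The scaling turned the sign of 6 genes with small differences, PSMA5, PSMB2, PSMB3, PSMD1, PSMD4 and PSMD6. That of PSMC1 turned under a trimmed mean.

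**Figure D2:**
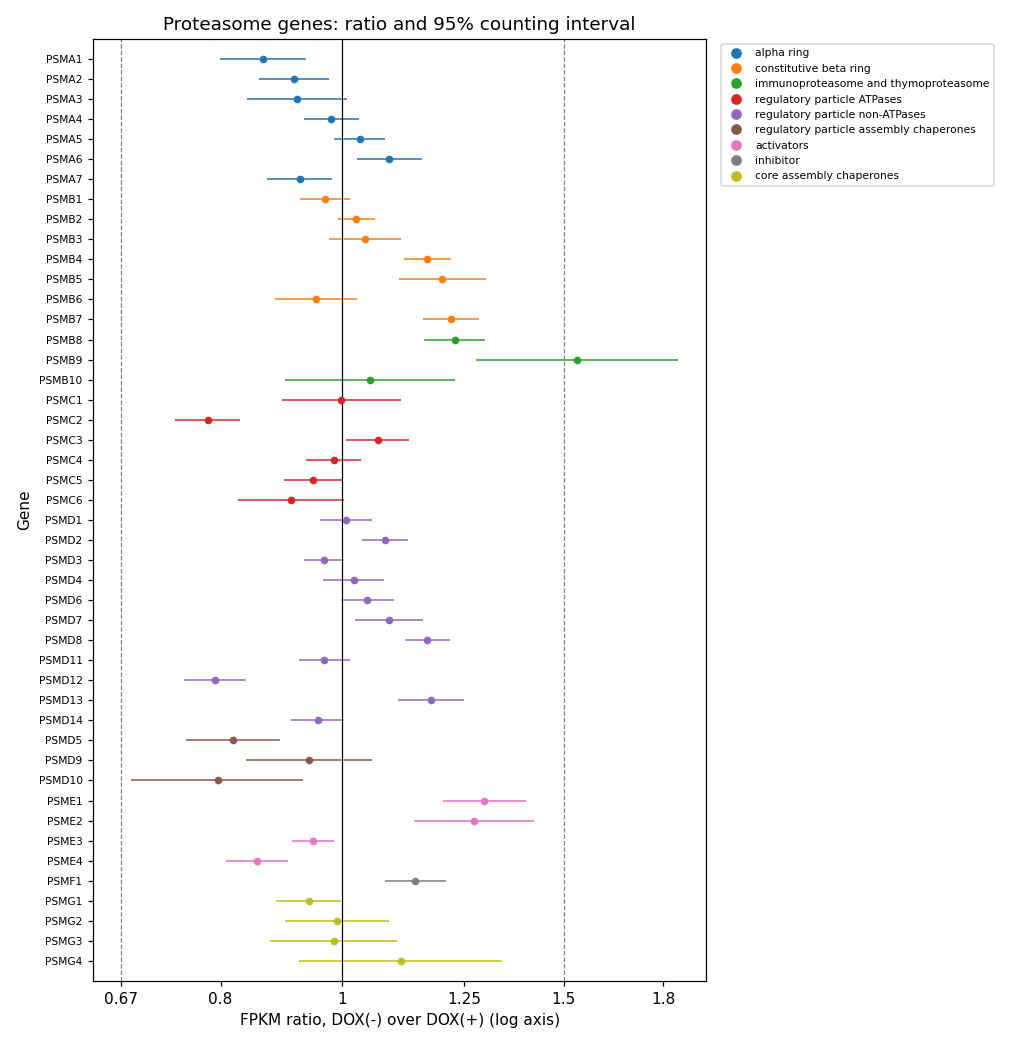
Ratio of FPKM in DOX(-) over DOX(+) for the 46 proteasome genes above 0 (log axis), coloured by role, with bars for the 95% counting interval, a solid line at equal levels and dashed lines at 1.5-fold either way. PSMB9 lies highest and PSMC2 lowest, and 22 bars cross the solid line.

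The alpha ring genes, which form the gate of the core, lay mostly slightly lower in DOX(-). Of 7 genes above 0, 5 were below 0 on the log2 scale, with a median difference of -0.11. PSMA1 had 8.39 FPKM in DOX(-) against 9.70 in DOX(+), from 1132 and 1462 fragments, a ratio of 0.865 (0.800 to 0.936). PSMA2 had 14.5 and 15.9 FPKM, a ratio of 0.915 (0.858 to 0.976). PSMA7 had 43.4 and 47.0 FPKM, a ratio of 0.924 (0.871 to 0.980). These 3 had intervals below an equal level. PSMA6, at 12.6 and 11.6 FPKM, was the only alpha gene with an interval above it, at 1.09 (1.03 to 1.16). The intervals of PSMA3 (ratio 0.920), PSMA4 (0.980) and PSMA5 (1.03) included it. PSMA8, an alpha subunit known from testis, was listed at 0, where 3 fragments would equal 0.0614 FPKM in DOX(-) against 0.0550 in DOX(+). PSMA6 has processed pseudogenes, and those listed were assigned 10.9% of the family's fragments in DOX(-) and 12.2% in DOX(+). With them added its ratio was 1.07 (1.02 to 1.13). Most of these fragments, 233 and 264, were listed under PSMA6P1 on chromosome Y. Whether they came from PSMA6 was not tested.

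Of the 7 constitutive beta ring genes, 5 were above 0, with a median of 0.06, which was -0.01 when scaled without mitochondrial genes. Of the 3 catalytic genes, PSMB7 (the trypsin-like site) had 76.6 FPKM in DOX(-) against 62.8 in DOX(+), from 3105 and 2843 fragments, a ratio of 1.22 (1.16 to 1.28). PSMB5 (the chymotrypsin-like site and the main target of proteasome inhibitor drugs) had 21.5 and 17.9 FPKM, a ratio of 1.20 (1.11 to 1.301). PSMB6 (the caspase-like site) had 30.1 and 31.5 FPKM, a ratio of 0.954 (0.884 to 1.03). So 2 catalytic genes were higher in DOX(-) beyond counting error and the third was not separated from equal. Among the structural genes PSMB4 was at 35.6 and 30.4 FPKM, a ratio of 1.17 (1.12 to 1.22). PSMB1, PSMB2 and PSMB3, at 50.8 to 85.2 FPKM over both libraries, had ratios from 0.968 to 1.04 with intervals that included an equal level.

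The labels name no interferon treatment, and immunoproteasome genes were present at unequal levels. PSMB8 (chr6:32840717-32844703) had 51.4 FPKM in DOX(-) against 41.9 in DOX(+), from 2627 and 2389 fragments, a ratio of 1.23 (1.16 to 1.299). PSMB9 (chr6:32844136-32859585) had 4.03 and 2.63 FPKM, from 279 and 203 fragments, a ratio of 1.54 (1.28 to 1.85). PSMB10 (chr16:67934502-67937087) had 5.89 and 5.60 FPKM, from 322 and 342 fragments, a ratio of 1.05 (0.901 to 1.23). PSMB9 thus had the highest ratio of the 46 genes and one of the lowest counts, and PSMB10 was not separated from equal. PSMB8 and PSMB9 lie on opposite strands and their gene models share 568 bases, and the sources used here do not say whether counting used strand. PSMB8-AS1, antisense to PSMB8, also overlaps PSMB9 on the same strand. It was listed at 1.05 FPKM in DOX(-) against 1.14 in DOX(+), from 103 and 125 fragments. PSMB11, the thymic subunit, was listed at 0; 3 fragments would equal 0.0858 FPKM in DOX(-) against 0.0768 in DOX(+).

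Each immunoproteasome subunit replaces 1 constitutive catalytic subunit, so their rebuilt levels were set side by side. PSMB8 over PSMB5 was 2.40 in DOX(-) and 2.34 in DOX(+), and the ratio of these, 1.02 (0.927 to 1.13), was not separated from equal. On the non-overlapping exon length it was 1.23 and 1.20, and both are lower bounds since PSMB8 has the fewest possible fragments. PSMB9 over PSMB6 was 0.236 in DOX(-) and 0.147 in DOX(+), 1.61 times higher in DOX(-) (1.32 to 1.97). PSMB10 over PSMB7 was 0.0834 and 0.0968, a ratio of 0.862 (0.732 to 1.02). At the RNA level the beta5 pair was thus mostly the immunoproteasome form on either length, and the beta1 and beta2 pairs mostly the constitutive form. PSMB9's promoter is printed because this gene had the highest ratio. It is the RefSeq window of 300 bases around the start (GRCh38.p14, chr6:32853942-32854241, plus strand). This window overlaps the gene model of TAP1 (chr6:32845209-32853978, minus strand). Capitals mark the 1 match to TGANNNNGC, on either strand, a motif found in 42.1% of all 27305 promoters.
PSMB9: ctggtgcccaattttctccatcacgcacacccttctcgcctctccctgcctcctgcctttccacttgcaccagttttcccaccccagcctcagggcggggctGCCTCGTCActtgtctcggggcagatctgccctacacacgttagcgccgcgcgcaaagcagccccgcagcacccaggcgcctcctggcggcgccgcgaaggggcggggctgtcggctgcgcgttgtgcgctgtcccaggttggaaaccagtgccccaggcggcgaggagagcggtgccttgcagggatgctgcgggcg

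Of the 6 ATPases of the regulatory particle, 5 were below 0 and PSMC3 was above it. They lay close together except for PSMC2, the lowest. PSMC2 (chr7:103344254-103369395) had 18.5 FPKM in DOX(-) against 23.7 in DOX(+), from 1847 and 2642 fragments, and its ratio of 0.781 (0.736 to 0.829) was the lowest of all proteasome genes. PSMC3 had 34.3 and 32.2 FPKM, a ratio of 1.07 (1.01 to 1.13). The other 4 had ratios from 0.910 in PSMC6 to 0.998 in PSMC1, with intervals that included an equal level.

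PSMC1 was at 4.64 FPKM in each library, from 628 and 703 fragments, the fewest of the 6 ATPases. PSMC6 was next in fragments, with 759 and 932 (3.47 and 3.81 FPKM), while the other 4 had 1847 to 2896 fragments in DOX(-). In rebuilt FPKM, PSMC6 was at 20.9 in DOX(-) and 23.0 in DOX(+), against 8.52 and 8.53 for PSMC1. Their principal transcripts have 2188 and 4448 bases. On the non-overlapping exon length the 2 genes were close, PSMC6 at 6.12 and 6.73 and PSMC1 at 6.15 and 6.16. The ATPase ring holds 1 copy of each of its subunits. The table also lists 13 pseudogenes named after PSMC1, 8 of them above 0. PSMC1P1 (chr3:68635705-68637024, plus strand, a single exon of 1320 bases) was at 86.3 FPKM in DOX(-) against 95.3 in DOX(+), from 1888 and 2329 fragments. The pseudogenes held 75.5% of the family's fragments in DOX(-) and 77.3% in DOX(+). Added together, gene and pseudogenes had 2565 and 3093 fragments. The other 5 ATPases ranged from 759 to 2896 in DOX(-), a wide range that is not corrected for length. The summed ratio was 0.927 (0.879 to 0.977), now below an equal level where PSMC1 alone was not. Whether the fragments listed under the pseudogenes came from PSMC1 was not tested. PSMC1P1 matched the PSMC1 coding sequence at 1319 of 1320 aligned bases (99.9% identity), and the longest identical run was 884 bases. The difference is T885A, counted from the first base of the coding sequence. It turns codon 295 of 440 from TAT, for tyrosine, into the stop codon TAA. The stretch around it is printed because 1 base separates the genes there: coding positions 840 to 929 of the spliced PSMC1 transcript and chr3:68636544-68636633 of PSMC1P1 (GRCh38), with the differing base in capitals.
PSMC1: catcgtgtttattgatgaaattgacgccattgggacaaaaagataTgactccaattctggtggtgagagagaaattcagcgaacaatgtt
PSMC1P1: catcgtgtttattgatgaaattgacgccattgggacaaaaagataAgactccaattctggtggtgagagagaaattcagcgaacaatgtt
A fragment that misses this base and lies within the aligned sequence fits both genes. The sources used here do not say how the authors' counting placed such fragments, so the level of PSMC1 is uncertain.

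**Figure D3:**
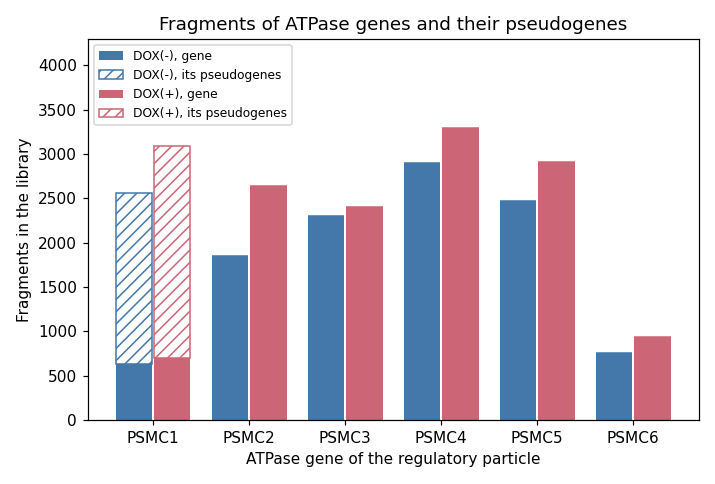
Fragments in each library (vertical axis, from 0) for the 6 ATPase genes of the regulatory particle, with fragments assigned to their pseudogenes stacked on top (hatched) where the table lists any. PSMC1 has 628 and 703 fragments alone and 2565 and 3093 with its pseudogenes.

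The non-ATPase subunits of the regulatory particle were nearly balanced, 7 of 11 above 0 with a median of 0.03, or -0.04 when scaled without mitochondrial genes. PSMD12 (Rpn5, a lid subunit) had 14.4 FPKM in DOX(-) against 18.2 in DOX(+), from 2040 and 2877 fragments, a ratio of 0.792 (0.748 to 0.839). It was the only one with an interval below an equal level. Intervals lay above it for PSMD8 (Rpn12), at 43.7 and 37.4 FPKM with a ratio of 1.17 (1.12 to 1.22), and for PSMD13 (Rpn9), at 11.9 and 10.1 FPKM with a ratio of 1.18. PSMD2 (Rpn1), a scaffold that docks ubiquitin-like domains, and PSMD7 (Rpn8) were at 1.08 (1.04 to 1.13) and 1.09 (1.02 to 1.16). The intervals of the other 6 included equal levels: the ratio was 0.956 for PSMD14 (Rpn11), the deubiquitinase that cuts ubiquitin chains from substrates, and 1.02 for the ubiquitin receptor PSMD4 (Rpn10). PSMD1, PSMD3, PSMD6 and PSMD11 lay from 0.966 to 1.05.

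All 3 chaperones of regulatory particle assembly were below 0, with a median of -0.26, the lowest of the groups. They hold ATPase modules until the base of the particle is complete. PSMD5 had 8.78 FPKM in DOX(-) against 10.7 in DOX(+), from 920 and 1255 fragments, a ratio of 0.819 (0.751 to 0.892). PSMD10 (gankyrin) had 3.46 and 4.35 FPKM, from 277 and 389 fragments, a ratio of 0.796 (0.679 to 0.931). PSMD9 had 2.24 and 2.38 FPKM, a ratio of 0.941 (0.838 to 1.06). The first 2 were lower in DOX(-) beyond counting error, and PSMD9 was not separated from equal.

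The activators, which open the core without the regulatory particle, split into 2 pairs. PSME1 and PSME2, whose products form the interferon-inducible activator PA28, were both higher in DOX(-). PSME1 (chr14:24136158-24138967) had 20.5 FPKM in DOX(-) against 15.8 in DOX(+), from 1464 and 1262 fragments, a ratio of 1.296 (1.20 to 1.40). PSME2 (chr14:24143362-24147570) had 3.67 and 2.89 FPKM, from 701 and 616 fragments, a ratio of 1.27 (1.14 to 1.42). Their rebuilt levels were 87.8 for PSME1 and 30.1 for PSME2 in DOX(-), although their products assemble together. PSME3, which forms the nuclear activator PA28gamma, had 20.2 and 21.3 FPKM, a ratio of 0.948 (0.912 to 0.985). PSME4 (PA200) had 9.12 and 10.7 FPKM, a ratio of 0.855 (0.808 to 0.905). Both were lower in DOX(-) beyond counting error.

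PSME1 and PSME2 lie on opposite strands of chromosome 14, 4394 bases apart. Their RefSeq promoter windows are printed because the 2 genes differed in the same direction by about the same ratio. Capitals mark the match to GAAANNGAA, on either strand, the core of the element bound by interferon-regulated factors (PSME1 chr14:24135944-24136243, plus strand; PSME2 chr14:24146561-24146860, minus strand).
PSME1: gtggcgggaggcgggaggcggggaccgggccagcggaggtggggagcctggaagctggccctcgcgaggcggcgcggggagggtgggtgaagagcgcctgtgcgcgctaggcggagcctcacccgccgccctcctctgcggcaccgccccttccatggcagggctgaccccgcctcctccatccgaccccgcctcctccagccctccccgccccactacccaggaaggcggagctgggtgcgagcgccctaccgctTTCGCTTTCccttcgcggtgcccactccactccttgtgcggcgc
PSME2: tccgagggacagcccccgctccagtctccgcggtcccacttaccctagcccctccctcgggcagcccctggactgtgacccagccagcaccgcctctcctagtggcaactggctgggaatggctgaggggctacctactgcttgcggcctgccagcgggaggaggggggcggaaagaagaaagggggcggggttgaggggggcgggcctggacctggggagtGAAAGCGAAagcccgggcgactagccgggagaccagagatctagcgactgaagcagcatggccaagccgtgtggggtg
Each holds 1 match. The motif was in 7 of the 42 proteasome promoters matched by symbol in RefSeq (16.7%), among them that of PSMC2, and in 8.29% of all 27305 promoters, and TTCNNNGAA, the core of the interferon-gamma element, was in 5 (11.9%) and in 7.88% of all. Neither was found in the windows of PSMB8 and PSMB9, which says only that these letters are not there. The window of PSMB10, whose ratio was 1.05 (0.901 to 1.23), holds 1 match to GAAANNGAA. Both interferon motifs were chosen after seeing the data. Values of 5 genes of the interferon response and of antigen presentation are given beside these, chosen after their values were seen. The factor IRF1 was at 1.56 and 1.44 FPKM, a ratio of 1.08 (0.932 to 1.26), and NLRC5, an activator of class I genes, was at 1.06 and 0.886 FPKM, a ratio of 1.19 (1.04 to 1.37). The peptide transporter subunits TAP1 and TAP2, encoded beside PSMB8 and PSMB9, had ratios of 1.10 (0.996 to 1.21) and 1.09 (1.03 to 1.15). B2M, the light chain of class I molecules, had a ratio of 0.966 (0.889 to 1.05); the lengths of TAP1 and B2M were inferred as for PSMB8. The intervals of NLRC5 and TAP2 lay above an equal level and the other 3 included it, and no difference from PSME1 or PSMB9 was tested.

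PSMF1 (PI31), named as an inhibitor of the core, had 14.6 FPKM in DOX(-) against 12.8 in DOX(+), a ratio of 1.14 (1.08 to 1.21). The chaperones PSMG1 to PSMG4, which guide formation of the alpha ring, stayed near equal, with differences from -0.09 to 0.08 on the log2 scale. PSMG1 had 35.1 and 37.4 FPKM, a ratio of 0.940 (0.886 to 0.998), the only interval of the 4 below an equal level. Its partner PSMG2 was at 0.990 (0.901 to 1.09), and PSMG3 and its partner PSMG4 were at 0.984 and 1.11. PSMG4 was the lowest gene above 0 in deposited FPKM, at 1.02 and 0.913, but at 16.6 and 14.9 in rebuilt FPKM.

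Rebuilt levels spanned 34.8-fold in DOX(-) and 36.6-fold in DOX(+) over the 46 genes, against 81.2-fold and 93.3-fold for deposited FPKM. This narrower span rests on the principal transcript length. On the non-overlapping exon length, levels ran from 1.34 in PSMG4 to 116 in PSMB4 in DOX(-), and from 1.20 to 99.0 in DOX(+). Over the 14 expressed genes of the standard core the span was 6.51-fold in DOX(-) and 5.76-fold in DOX(+), from PSMA4 at 39.8 to PSMB4 at 259 in DOX(-). The constitutive beta ring had the highest median, 145 in DOX(-) and 142 in DOX(+), above the regulatory particle non-ATPases (74.6 and 69.0), ATPases (65.0 and 68.2) and alpha ring (55.5 and 56.8). Chaperones were lower, with medians of 26.8 and 27.1 for the core and 11.8 and 13.6 for the regulatory particle. PSME3 ranked first in both libraries, at 296 and 312 rebuilt FPKM on a principal transcript of 998 bases. On the non-overlapping exon length it was at 57.3 and 60.5 and PSMB4 was first, at 116 in DOX(-). PSMC1 was lowest in rebuilt FPKM, at 8.52 and 8.53 on a principal transcript of 4448 bases, and at 34.8 and 37.5 with the fragments of its pseudogenes. On the non-overlapping exon length PSMC1 was at 6.15 and 6.16, and PSMG4 was lowest, at 1.34 and 1.20. Ranks within a few places of each other rest on the choice of transcript and were not separated.

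**Figure D4:**
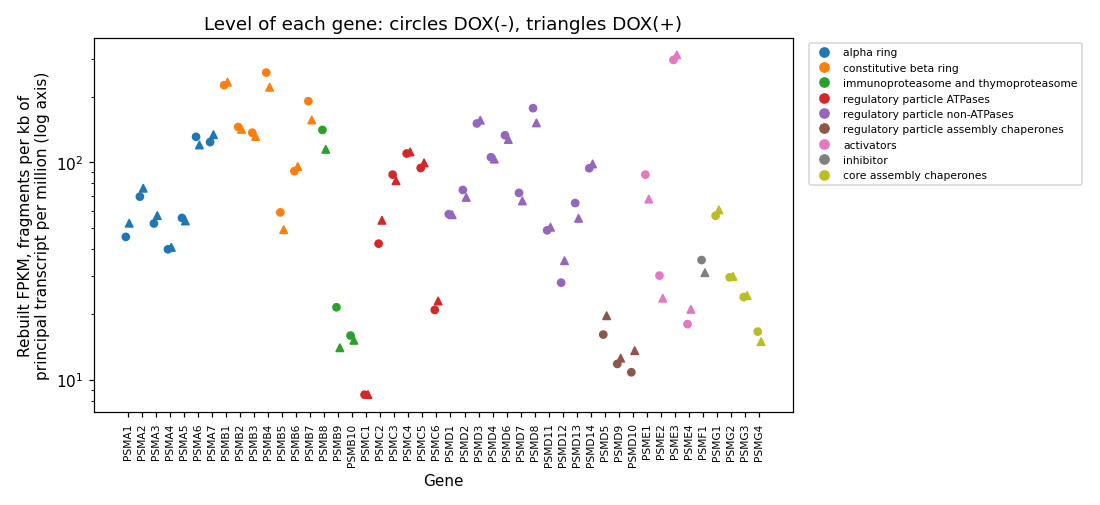
Rebuilt FPKM (fragments divided by the principal transcript length and the library total, log axis) of the 46 proteasome genes above 0, ordered and coloured by role, circles for DOX(-) and triangles for DOX(+). PSME3 and PSMB4 are highest and PSMC1 lowest, and the 2 symbols of a gene lie close together compared with the distances between genes.

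Other genes of the pathway were taken from a list of 30 that covers the remaining subunits, assembly and shuttle factors, ubiquitin genes and regulators of proteasome transcription. All 30 were tested. Of these, 1 passed 1.5-fold, being higher in DOX(-), and 0 passed it as lower, 12 were above 0 and 18 below, and the median was -0.03. Over all 11525 genes tested, 7.17% passed 1.5-fold in either direction and 46.6% were above 0. The gene of the 30 past 1.5-fold was NFE2L1 (NRF1), the factor known to raise proteasome gene transcription when proteasome activity falls. NFE2L1 (chr17:48048329-48061487) had 8.86 FPKM in DOX(-) against 4.91 in DOX(+), from 3448 and 2133 fragments, a ratio of 1.81 (1.71 to 1.91). DDI2, the protease that releases NFE2L1 in its active form, was at 8.45 and 11.5 FPKM, a ratio of 0.738 (0.697 to 0.781). NGLY1, which removes its sugar chains, had a ratio of 0.991 (0.923 to 1.06). The related factor NFE2L2 (NRF2) was at 2.40 and 3.12 FPKM, a ratio of 0.769 (0.682 to 0.866). So RNA of NFE2L1 was higher in DOX(-) while that of DDI2 and NFE2L2 was lower beyond counting error.

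Among the remaining subunits and chaperones, POMP, which completes core assembly, was at 47.7 FPKM in DOX(-) against 41.6 in DOX(+), a ratio of 1.15 (1.056 to 1.249). The ubiquitin receptor ADRM1 (Rpn13) was at 52.0 and 54.9 FPKM, a ratio of 0.947 (0.896 to 1.002). SEM1 (Rpn15), the smallest lid subunit, was at 2.77 and 3.76 FPKM, a ratio of 0.736 (0.670 to 0.807). Of these, SEM1 lay beside PSMC2 and PSMD12 at the low end. Other large differences in the list were UBE3A, a ubiquitin ligase, at 3.92 and 5.79 FPKM (-0.47 on the log2 scale) and the proteasome-bound thioredoxin TXNL1 at 5.93 and 7.84 FPKM (-0.35).

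NFE2L1 and NFE2L2 bind antioxidant response elements, whose core was searched as TGANNNNGC on both strands. It was in 26 of the 42 matched proteasome promoters (61.9%) and in 42.1% of all 27305 promoters of that length. Genes with a match had a median difference of 0.04 (24 tested) and those without one of -0.04 (16 tested). The promoter of PSMA5 is printed because it holds the most matches, 5, marked in capitals (RefSeq, GRCh38.p14, chr1:109426399-109426698, minus strand).
PSMA5: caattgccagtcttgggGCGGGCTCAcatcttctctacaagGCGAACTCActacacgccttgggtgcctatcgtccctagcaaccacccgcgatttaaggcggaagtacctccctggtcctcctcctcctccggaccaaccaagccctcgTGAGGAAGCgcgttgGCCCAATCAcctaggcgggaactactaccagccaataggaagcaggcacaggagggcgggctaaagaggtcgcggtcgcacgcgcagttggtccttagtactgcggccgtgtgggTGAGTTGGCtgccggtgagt
PSMA5 itself had 31.0 FPKM in DOX(-) against 30.1 in DOX(+), from 3428 and 3710 fragments, a ratio of 1.03 (0.985 to 1.08). A match is a stretch of letters, and binding was not measured.

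GC content of the principal transcript moved with these differences. Over the 46 genes the Spearman correlation between GC percent and the log2 difference was 0.53 and Pearson's r was 0.56; the genes share the same 2 libraries and their depth. Over 7050 protein-coding genes in the same fragment range Spearman's value was 0.35. The 14 proteasome genes with intervals above an equal level had a median GC of 52.7%, the 10 below it 41.5% and the other 22 had 50.2%. PSMC2 and PSMD12, the 2 lowest subunits, are at 38.5% and 37.9% GC, and PSMB9 is at 56.1%. Each difference was also taken from the median of genes in the same 5-point GC class, a step chosen after seeing the data. PSMC2 then stood at -0.16 and PSMD12 at -0.14, about as far as PSMD5 and PSMD10, both at -0.17. PSMB9 stood at 0.42, PSME1 0.33, PSMB7 0.31, PSMB8 0.26, PSMA5 0.23, PSMB5 0.22, and PSME2, PSMA6 and PSMF1 each 0.21. The immunoproteasome gene PSMB10 stood at -0.006. The alpha ring's median turned from -0.11 to 0.06, beside 0.06 for the constitutive beta ring, and that of the assembly chaperones of the regulatory particle was -0.17.

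**Figure D5:**
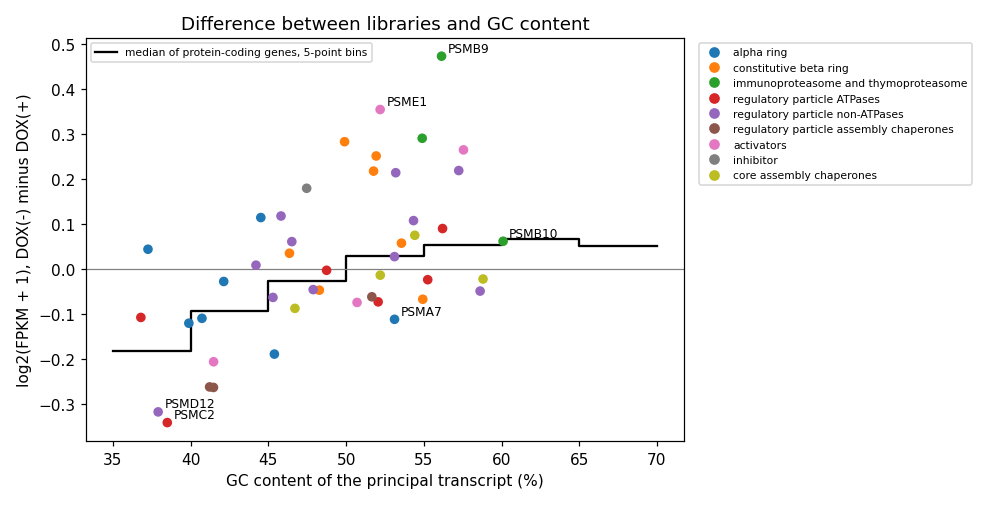
Difference in log2(FPKM + 1), DOX(-) minus DOX(+) (vertical axis), against GC percent of the principal transcript (horizontal axis) for the 46 proteasome genes, coloured by role. The black steps give the median of protein-coding genes in the same fragment range in each 5-point class. PSMC2 and PSMD12 lie at the low end of both axes and PSMB9 and PSME1 well above the steps.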

How the data were processed

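The libraries compared were 1 of HL60-EIF2S3 cells without doxycycline and 1 with it. Per the file headers, the authors' table gives each gene's FPKM in both. Tools listed without roles in the submitters' processing notes are HISAT2 2.1.0, CASAVA 1.8, edgeR and StringTie 1.3.4b, with build GRCh38. The sources used here do not give strand use or how fragments that fit several genes were treated. Of 58302 identifiers, 58039 were found in GENCODE release 29 and 56647 at the same locus, among them all 48 proteasome genes. Fragments were recovered from the FPKM values as described, with library totals that made 99.6% of values whole in genes with 1 transcript in each library (tolerance 0.02 fragment). Differences were taken on log2(FPKM + 1) for genes of 1 FPKM or more in either library, with a 1.5-fold rule of size because there was 1 library per condition; no model was fitted. Ratios have exact conditional Clopper-Pearson 95% counting intervals. Principal transcripts were taken by APPRIS label, then support level, then length. Every member is named; of the other pathway genes, those past 1.5-fold, the 4 with the largest differences among genes of 2 FPKM or more, and POMP, ADRM1, SEM1, NFE2L1 and NFE2L2; 1 gene that this names is not reported here. NGLY1, IRF1, NLRC5, TAP1, TAP2, B2M and the pseudogenes and antisense gene were named after their values were seen. The genes and lists were chosen with earlier results of these data known. Rebuilt levels were added after seeing the data. The computations were tested on simulated data and used Python 3.11.15, numpy 2.4.6, pandas 2.3.3 and scipy 1.17.1.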

Additional observations from a re-analysis of the deposited data

How the results depend on the processing

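No paired analysis was possible because each condition has 1 library, and for the same reason no library could be left out. Of 167 values recomputed under alternatives, 134 stayed within 1.5 times the count or within counting error. With a pseudocount of 0.1 FPKM 1 proteasome gene, PSMB9, passed 1.5-fold (higher in DOX(-)), and with a threshold of 25% above equal (or its inverse) 2 were higher (PSMB9 and PSME1) and 1 was lower (PSMC2). For the other pathway genes that threshold gave 2 higher and 4 lower, and a 2-fold threshold 0 higher. Shares over all genes are given only for the 1.5-fold rule with a pseudocount of 1 FPKM. The counts at these other settings thus have no background beside them. In proteasome genes free of overlapping gene models, 23 of 46, 10 were above 0 and the median was -0.0271. Scaling without mitochondrial genes gave medians of -0.0694 for the proteasome genes and -0.0919 for the other pathway genes (6 above 0), and 20 intervals below an equal level in place of 10. That scaling lowers the ratio of every gene by the same factor, and shares over other genes are not given under it. Centring on genes of the same GC content gave medians of 0.0263 and -0.007. Estimating fragments from the shortest transcript left 4 intervals above and 1 below an equal level, and from the longest transcript 5 below; both estimates give fewer fragments. Depth limits PSMB9, PSMB10, PSMD10 and PSMG4 most, each with 203 to 389 fragments in either library.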
